A study of Bos taurus with 46 samples.

Results

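The 10 genes described here are imprinted in cattle or other mammals, have been linked to fetal overgrowth and were followed in the blood leukocytes of pregnant heifers. They were chosen by name, and all 10 were found among the 30675 genes of the deposited count table. The growth genes were *IGF2*, a fetal growth factor expressed from the paternal allele, and *IGF2R*, the maternally expressed receptor that removes IGF2 and carries mannose 6-phosphate tagged enzymes to the lysosome. The growth-restraining genes were *CDKN1C*, an inhibitor of cyclin-dependent kinases, and *PHLDA2*, which limits placental growth. *PLAGL1* is a zinc finger transcription factor. The others were *GNAS*, the alpha subunit of the stimulatory G protein that activates adenylyl cyclase, *KCNQ1*, a potassium channel whose locus holds an imprinting control region, *SNRPN*, a spliceosomal Sm protein, *NAP1L5*, a nucleosome assembly protein-like gene, and *PEG3*, a zinc finger protein.

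Imprinted genes are transcribed mainly from the allele of one parent, and the choice is set by methylation marks laid down in the germ line. Many of them act on fetal and placental growth, and loss of imprinting accompanies large offspring syndrome (LOS) of cattle, an overgrowth seen in some pregnancies from in vitro produced embryos. The libraries described here hold the RNA of the dam's own leukocytes, so the values are levels in the mother and not in the fetus, and reads were not split by parental allele.

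Blood was drawn from 23 Angus crossbred heifers on day 55 (D55) and again on day 105 (D105) of gestation, which gave 46 libraries. The heifers carried fetuses conceived by artificial insemination (AI, n = 8), or in vitro produced (IVP) fetuses that were below (IVP-Normal, n = 6) or at or above (IVP-LOS, n = 9) a weight limit the study took from the AI fetuses on D105. The in vitro embryos came from Angus or Angus-crossbred oocytes fertilised with semen of a Brahman bull, were transferred as pairs, and gave single or twin pregnancies. Groups were thus named from an outcome at D105, also for the D55 blood. Buffy coats were freed of red cells by lysis. All 29 libraries of D55 and of IVP-Normal on D105 carried the name "New" and the 17 libraries of AI and IVP-LOS on D105 the name "BACKUP". Day and library name therefore cannot be told apart in AI and IVP-LOS, nor can treatment group and library name where IVP-Normal was compared on D105.

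The libraries held 18692653 to 24502012 reads on genes. The 2 shallowest were those of heifers 604 and 664 on D105, in which 38.0 and 36.1% of reads lay on no gene, against 23.2 to 30.6% in the other 44 libraries. T cell, B cell, monocyte, neutrophil and natural killer cell markers were present in every library. Of the 6 symbols listed as markers of the placental trophoblast, 4 had no read in any library (*PAG2*, *CSH2*, *PRP1* and *CDX2*), *IFNT2* had none in 44, and *PAG1* was counted throughout (median 463 CPM). In the newer RefSeq gene table that symbol is the name of one gene and a synonym of another, so it was not read as a trophoblast marker.

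Of the 10 genes, 6 were expressed, taken as a median of at least 1 CPM (the usual unit of reads scaled to library size, here with sizes adjusted by the trimmed mean of M-values, TMM). The median over the 46 libraries was 788 CPM for *GNAS* (623 to 1662), 87.6 CPM for *IGF2R* (63.8 to 174) and 86.9 CPM for *PLAGL1* (62.6 to 146). It was 28.7 CPM for *SNRPN* (19.5 to 47.8), 4.25 CPM for *NAP1L5* (2.75 to 7.33) and 1.85 CPM for *CDKN1C* (0.907 to 3.81). These levels are not corrected for transcript length, so they are compared between libraries and not between genes. *CDKN1C* and *NAP1L5* rested on 21 to 90 and 51 to 161 reads per library, while *GNAS* had at least 13728. The *GNAS* count sums the transcripts of a locus whose promoters are imprinted in different directions. *SNURF*, which shares a transcript with *SNRPN* in other mammals, had 0 reads in all 46 libraries, and *AIRN*, antisense to *IGF2R*, had at most 2 reads in a library. Both were singled out after their values were seen. Reads over overlapping genes were set aside in the counting, so these counts do not show that either transcript was absent. Whether *SNRPN* lost reads in this way was not tested.

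The growth factor itself had few reads. *IGF2* had a median of 6 reads per library, 37 of the 46 libraries had over 3 reads, and 2 had none. By group its reads (lowest, median and highest library) were 0, 8.5 and 16 in AI, 2, 4.5 and 8 in IVP-Normal and 2, 8 and 12 in IVP-LOS on D55. On D105 they were 1, 5 and 11 in AI, 0, 4.5 and 13 in IVP-Normal and 3, 6 and 15 in IVP-LOS. The 6 groups overlapped throughout. *PHLDA2* (94 reads in all libraries together, at most 11 in one), *PEG3* (108, at most 10) and *KCNQ1* (43, at most 4) had medians of 1.5, 2 and 1 reads, at or under the floor of 3 reads that a count of 0 allows. That floor is 0.122 to 0.16 CPM at these depths and covers counting error only. *KCNQ1* had no read in 22 libraries, *PEG3* in 12 and *PHLDA2* in 8. With no filter on low counts, none of these 4 genes was called in any comparison by edgeR, the smallest adjusted p being 0.449 for *PHLDA2*, 0.195 for *PEG3* and 0.353 for *KCNQ1*. For *IGF2* it was 0.633 over the 9 comparisons in which the filter dropped it, and 0.518 with the filter over the 4 in which it passed. At this depth a difference between groups was not detectable for them.

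**Figure D1:**
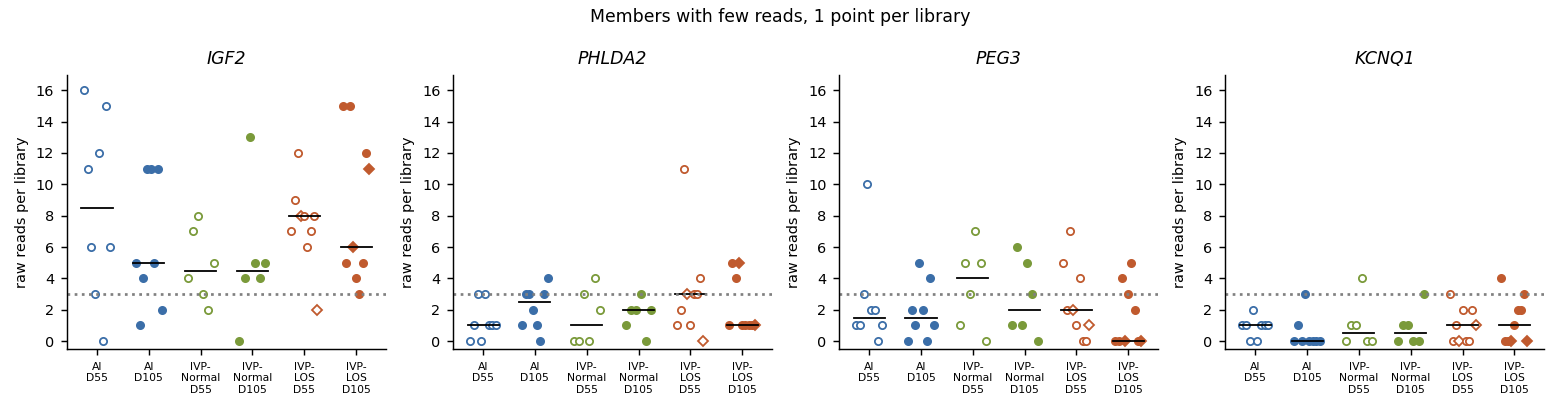
Raw reads per library (vertical axis) of *IGF2*, *PHLDA2*, *PEG3* and *KCNQ1* in the 6 groups, 1 point per library (open, D55; filled, D105; diamonds, heifers 604 and 664), with the group median as a bar and the floor of 3 reads as a dotted line. *IGF2* reaches 16 reads and *KCNQ1* never passes 4.

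Of 33 listed neighbours in the same imprinted clusters, 26 were in the table, 11 were expressed and 4 had no read at all. Of 31 other genes known to be imprinted in some mammal, 29 were in the table and 17 were expressed. *H19*, the maternally expressed RNA next to *IGF2*, had 34 reads in all libraries together. It too was singled out after its value was seen.

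*IGF2R* was higher and *GNAS* lower on D105 than on D55 in AI heifers. *IGF2R* measured 67.5, 84.4 and 98.3 CPM (lowest, median and highest heifer) on D55 and 83.5, 105 and 123 CPM on D105. The ranges overlapped, but each of the 8 heifers had the higher value on D105, by 0.0238 to 0.616 on the log2 scale. The fitted difference was a log2 fold change of 0.32 ± 0.09 (SE), with an edgeR adjusted p of 0.0308. *GNAS* measured 728, 828 and 943 CPM on D55 and 673, 720 and 785 CPM on D105. Its level was lower on D105 in 7 of 8 heifers, and the fitted change was -0.19 ± 0.06 (edgeR adjusted p = 0.0390). These were 2 of the 6 genes tested, where 9.95% of all 15248 genes were called, 7.21% as higher and 2.73% as lower. Their median log2 fold change was -0.0135, beside -0.0232 for all genes. *PLAGL1* (-0.03), *SNRPN* (0.0036), *CDKN1C* (0.02) and *NAP1L5* (-0.14) were not called. The direction of *IGF2R* and *GNAS* was the same without any 1 of the 8 heifers. The calls were less stable: without heifer 533, 590 or 648 neither was called (adjusted p from 0.0543 to 0.131), without 606 only *GNAS*, without 546, 609 or 647 only *IGF2R*, and without 517 both. A fit of all 46 libraries together called neither (adjusted p = 0.186 and 0.429). All of these fits were unpaired, although the same heifers were bled on both days. With heifer as a replicate block *IGF2R* and *GNAS* were both called, and that fit was not repeated with heifers left out.

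Neutrophil and monocyte markers moved in the same libraries. In AI heifers 7 of 7 neutrophil markers tested were higher on D105, with a median log2 fold change of 1.57, and their summed level ranged from 946 to 1956 CPM on D55 and from 2327 to 5641 CPM on D105, without overlap. Of the 5 monocyte markers tested *CD14* (1.01) and *CD68* (1.14) were higher, the summed levels being 236.5 to 1033 and 435.5 to 1989 CPM. No T cell, B cell, natural killer cell, platelet or erythroid marker was called. The platelet sum was 158 to 483 CPM on D55 and 135 to 420 CPM on D105. In such bulk samples fewer cells of a type and less RNA per cell cannot be told apart, and the part of the cell mixture in the *IGF2R* and *GNAS* differences was not tested.

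In IVP-Normal heifers, whose libraries carried one name on both days, none of the 6 genes was called by edgeR or DESeq2 (2.45% of all genes by edgeR), and none had an unadjusted p under 0.05, as 13.3% of all genes did. *IGF2R* was higher on D105 in 4 of 6 heifers (log2 fold change 0.09, 95% interval -0.178 to 0.349). *GNAS* was lower in 6 of 6, from 658, 899 and 1043 CPM on D55 to 645, 751 and 984 CPM on D105, with a fitted change of -0.22 ± 0.13 (edgeR adjusted p = 0.510). The ranges of *GNAS* on the 2 days overlapped, and the fitted change was close to that in AI with a larger error. *SNRPN* had 19.5, 28.1 and 29.4 CPM on D55 and 27.0, 30.6 and 39.6 CPM on D105 (0.25 ± 0.12, edgeR adjusted p = 0.380), with the higher value on D105 in 5 of 6. Neutrophil markers were higher on D105 for 5 of 7.

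In IVP-LOS heifers none of the 6 was called either (0.251% of all genes), again with none at an unadjusted p under 0.05 (12.6% of all genes) and none by DESeq2. *IGF2R* had 75.4, 87.8 and 111 CPM on D55 and 63.8, 86.6 and 174 CPM on D105, higher in 4 and lower in 5 heifers. The highest value on D105 was that of heifer 637, whose neutrophil marker sum of 14200 CPM was also the highest of that day, and without that heifer the *IGF2R* change was -0.11 in place of 0.05. *GNAS* had 682, 910 and 1048 CPM on D55 and 623, 775 and 1662 CPM on D105. It was lower in 7 of 9 heifers, and the fitted change of -0.05 became -0.24 without heifers 604 and 664 (edgeR adjusted p = 0.457). *GNAS* thus had its lower value on D105 in most heifers of every treatment group (7 of 8, 6 of 6 and 7 of 9), as did *PLAGL1* (6 of 8, 5 of 6 and 7 of 9) and *NAP1L5* (6 of 8, 4 of 6 and 5 of 9), and only the AI fit called *GNAS*.

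**Figure D2:**
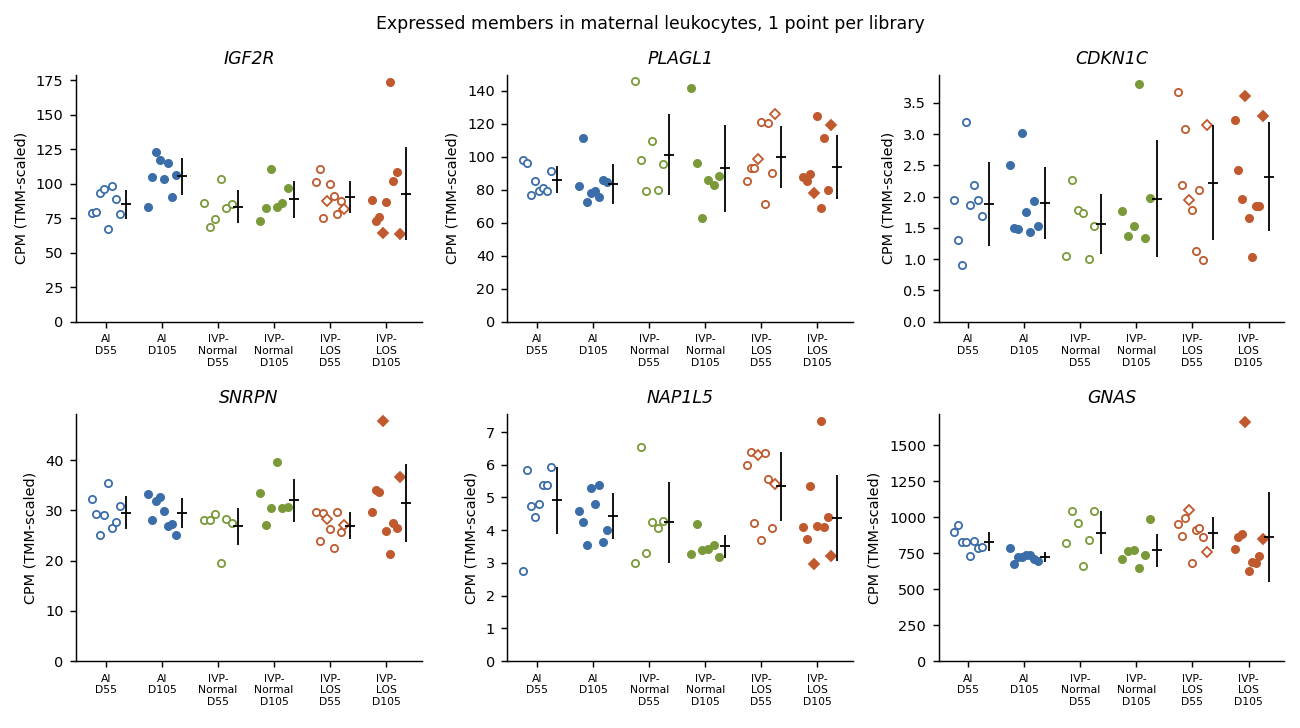
TMM-scaled counts (CPM, vertical axis) of the 6 expressed genes in each treatment group and day, 1 point per library (open, D55; filled, D105; diamonds, heifers 604 and 664), with the group mean ± SD beside the points. *IGF2R* on D105 runs from 83.5 to 123 CPM in AI, and a single IVP-LOS library on D105 reaches 174 CPM for *IGF2R* and another 1662 CPM for *GNAS*.

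The day change itself did not differ detectably between treatment groups. In edgeR the interaction of day with treatment, against AI as the common reference, called none of the 7 members tested and none of all genes tested. Of all genes, 3.39% (IVP-Normal) and 4.96% (IVP-LOS) had an unadjusted p under 0.05, no more than that threshold allows by itself. None of the 7 had an unadjusted p under 0.05. For *IGF2R* the day change minus that of AI was -0.22 in IVP-Normal (95% interval -0.528 to 0.0815) and -0.27 in IVP-LOS (-0.669 to 0.129). For *GNAS* the differences were -0.02 (-0.287 to 0.246) and 0.15 (-0.198 to 0.507). These intervals include differences as large as the AI change.

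Genes that work with the members were read from the same fits, beside the 9.95% of all genes called in AI (7.21% higher and 2.73% lower). Of 24 genes of Gs and cAMP signalling, the pathway of *GNAS*, 4 were higher and 1 was lower on D105 in AI. *CREM*, a transcriptional regulator induced by cAMP, rose by 1.45 ± 0.15 (log2, edgeR adjusted p = 3.24e-05), *GNAL*, a close relative of *GNAS*, by 0.83 and *PDE4B*, which degrades cAMP, by 0.58. *CREM* was also called in IVP-Normal (1.58) and IVP-LOS (0.98), and *GNAL* in IVP-Normal (0.83). Among 6 tested genes of the IGF ligands, receptors and binding proteins *IRS2*, an adaptor of the insulin and IGF1 receptors, rose by 1.21 in AI. Of 16 tested genes listed under mannose 6-phosphate sorting, the second role of *IGF2R*, only *PLAUR* was called (2.32). *PLAUR* is the urokinase receptor and not a tagged enzyme or a sorting factor. Of the 6 other CDK inhibitors *CDKN2B* (1.56) and *CDKN2D* (0.35) were higher, while *CDKN1C* was not called. *ARID4A* (0.21) was the only one of 11 tested genes of imprint maintenance to be called. None of 12 tested neighbours, 18 other imprinted genes or 7 Sm core proteins was called in AI. With so few genes in each list, nothing particular to a list is read from these counts. The neutrophil marker changes stood beside all of these, and their part was not tested.

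No member was called between treatment groups on either day. Over 3 comparisons on D55 and 3 on D105, in which groups were shared, edgeR called 0 of the 6 expressed genes in each, where 0% of all genes were called. DESeq2 called none of the 6 either. Of the 36 tests, 3 had an unadjusted p under 0.05. *IGF2R* on D105 had 83.5, 105 and 123 CPM in AI and 72.7, 84.7 and 111 CPM in IVP-Normal, a difference of -0.25 (95% interval -0.469 to -0.0237, edgeR adjusted p = 0.514). *NAP1L5* on D105 had 3.56, 4.41 and 5.37 CPM in AI and 3.19, 3.40 and 4.20 CPM in IVP-Normal, a difference of -0.34 (-0.633 to -0.0406, edgeR adjusted p = 0.514). Both pairs of groups overlapped, and in both the library names differed with the group. In the same libraries the summed monocyte markers had a median of 691 CPM in AI (435.5 to 1989) and 400.3 CPM in IVP-Normal (249.7 to 834.1), and the neutrophil markers 3474 CPM (2327 to 5641) and 2280 CPM (1334 to 5674), and their part in the *IGF2R* difference was not tested. *PLAGL1* on D55 had 77.0, 83.3 and 97.9 CPM in AI and 71.5, 93.1 and 126 CPM in IVP-LOS, a difference of 0.22 (0.00848 to 0.432, edgeR adjusted p = 0.638). At an unadjusted p under 0.05 stood 9.57% of all genes in the first and second of these comparisons and 7.74% in the third. In the other 4 comparisons the share was 9.92% (AI with IVP-Normal) and 5.19% (IVP-Normal with IVP-LOS) on D55 and 5.76% (AI with IVP-LOS) and 3.24% (IVP-Normal with IVP-LOS) on D105.

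The intervals, which are approximate, show what these group sizes could resolve. Over the 6 comparisons the fitted log2 differences of *PLAGL1* ran from -0.0061 to 0.23, with 95% intervals between -0.337 and 0.484. Those of *SNRPN* ran from -0.15 to 0.12 (-0.364 to 0.368) and those of *GNAS* from 0.0078 to 0.25 (-0.233 to 0.582). *IGF2R* ran from -0.25 to 0.13 (-0.539 to 0.488) and *NAP1L5* from -0.34 to 0.34 (-0.645 to 0.746). The widest were those of *CDKN1C*, from -0.27 to 0.52 (-0.854 to 1.15), the expressed gene with the fewest reads. A change of 1 log2 unit between treatment groups thus lay outside every interval of 5 genes and inside at least 1 of *CDKN1C*.

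**Figure D3:**
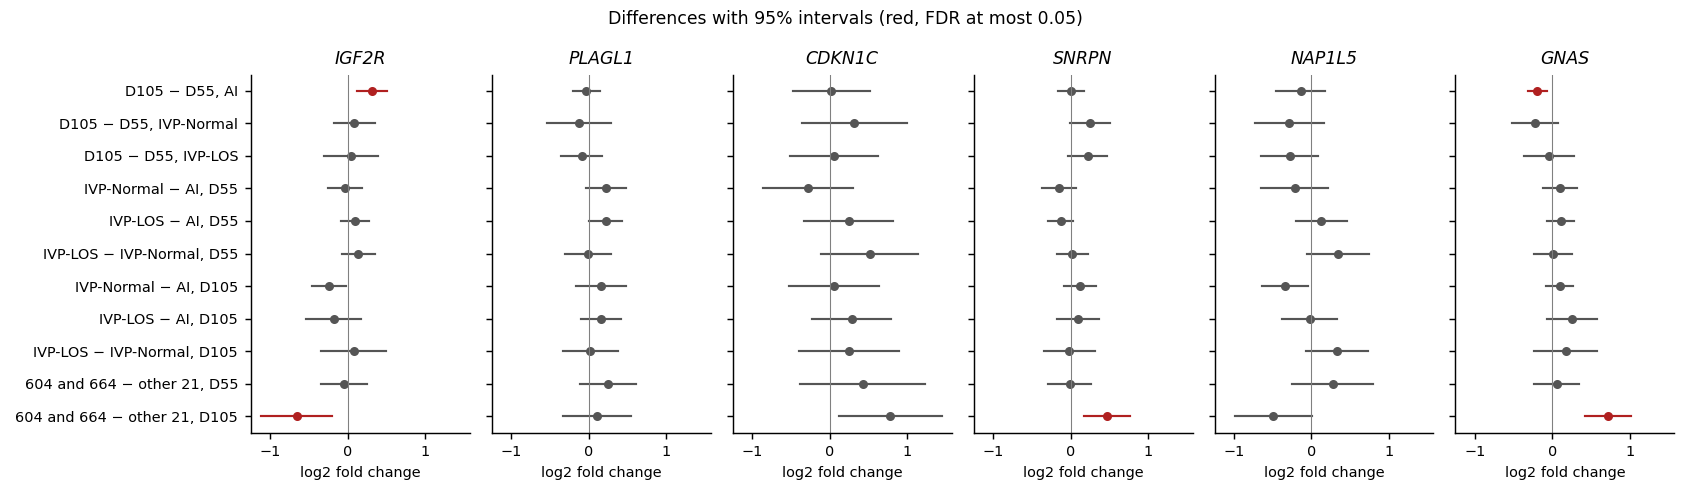
Log2 fold changes (horizontal axis) with 95% intervals of the 6 expressed genes in 3 comparisons of D105 with D55, 6 comparisons of treatment groups and 2 of heifers 604 and 664 with the other 21, in red where the edgeR adjusted p was at most 0.05. *IGF2R* and *GNAS* are red in AI over time, and *IGF2R*, *SNRPN* and *GNAS* for the pair on D105.

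Heifers 604 and 664, both IVP-LOS, carried the largest fetuses, and the study saw their D105 leukocytes stand apart in a clustering of these same libraries. The comparison with the other 21 heifers is therefore not independent of that choice. On D55 none of 7 members tested was called (0.0179% of all genes), none had an unadjusted p under 0.05 (4.72% of all genes) and DESeq2 called none. On D105 edgeR called 3 of 7, where 21.1% of all genes were called, 11.6% as higher and 9.48% as lower.

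*GNAS* on D105 was 1662 CPM in heifer 604 and 849 CPM in heifer 664, and 623, 731 and 984 CPM (lowest, median and highest) in the other 21. Heifer 604 stood above all of them, while 3 of them lay above heifer 664. The fitted difference of 0.72 ± 0.14 (edgeR adjusted p = 0.00277) was 0.16 without heifer 604 (edgeR adjusted p = 0.534) and 1.12 without heifer 664 (edgeR adjusted p = 0.000132). Each of these fits leaves 1 library against 21, so its spread comes from the other 21 heifers alone and the lone library is assumed to vary like them. Heifer 604 had the highest *GNAS* on D55 as well (1048 CPM), but by little, with heifers 560 and 688 at 1042.6 and 1039.5 CPM. The platelet marker sum of heifer 604 was the highest of D105 (2600 CPM, against 333 in heifer 664 and 125 to 713 in the others) and the second highest of D55 (827 CPM). *PF4*, a platelet chemokine, was 2270 CPM in that library.

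*SNRPN* on D105 was 47.8 CPM in heifer 604 and 36.7 CPM in heifer 664, and 21.2, 29.9 and 39.6 CPM in the other 21, of which 1 lay above heifer 664. The difference was 0.47 ± 0.14 (edgeR adjusted p = 0.0248), and 0.27 without heifer 604 (edgeR adjusted p = 0.379) or 0.64 without heifer 664 (edgeR adjusted p = 0.0548). *IGF2R* was 64.7 and 63.8 CPM, below all of the other 21 (72.7, 96.9 and 174 CPM), with a difference of -0.66 ± 0.22 (edgeR adjusted p = 0.0382). Its fold change stayed between -0.665 and -0.655 with either heifer left out, while the adjusted p of the lone library was 0.182 and 0.211. *CDKN1C*, at 3.61 and 3.28 CPM against 1.04, 1.77 and 3.81 CPM, was not called (0.78 ± 0.32, edgeR adjusted p = 0.0782), nor was *NAP1L5*, at 2.97 and 3.23 CPM against 3.19, 4.10 and 7.33 CPM (-0.49 ± 0.24, edgeR adjusted p = 0.134). *PLAGL1* was 78.1 and 119 CPM, on either side of the median of 85.2 CPM. In these fits with 1 library the count of 3 became 0 without heifer 604 and 1 (*GNAS*) without heifer 664. Against the other 7 IVP-LOS heifers alone it was 0, with differences of 0.70 for *GNAS*, 0.53 for *SNRPN* and -0.70 for *IGF2R* (edgeR adjusted p = 0.0687, 0.0776 and 0.152). Among the BACKUP libraries alone it stayed 3.

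Cell type markers moved with the pair. On D105, 6 of 7 neutrophil markers were lower (summed level 590 and 628 CPM, against 1135 to 14170 CPM), as were 4 of 6 monocyte markers (94.1 and 120 CPM, against 204 to 1989 CPM). Of 5 B cell markers, 3 were higher (5010 CPM in heifer 664 and 3780 in heifer 604, against 1168 to 4255 CPM). Higher too were *HBB* and 3 of 4 platelet markers, whose sum stood apart in heifer 604 only (2600 CPM, 333 in heifer 664, 125 to 713 in the others). *CD3D* was lower. With these libraries also the shallowest and richest in reads on no gene, the part of cell mixture or RNA quality in the 3 differences was not tested.

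The lists of partners were read for the pair on D105 against the same background of 21.1% of all genes called, 11.6% as higher and 9.48% as lower. Of the 7 Sm core proteins, among them *SNRPB*, a paralog so similar to *SNRPN* that the split of reads between them is uncertain, 5 were higher, with the smallest adjusted p for *SNRPD3* (0.82), *SNRPD2* (0.69) and *SNRPG* (0.65), and the median log2 fold change of the list was 0.495, beside -0.0222 for all genes. In both directions together, the lists other than the Sm core proteins and imprint maintenance (4 of 12) had called shares near or below 21.1%. By direction this did not hold for Gs and cAMP genes, with 5 of 24 lower beside 9.48% of all genes, nor for the neighbours named below. With so few genes in each list, nothing particular to a list is read from these counts, those of the Sm core proteins included. Of 24 Gs and cAMP genes 5 were lower, led by *GNAL* (-1.10), *GNG2* (-0.77) and *PDE3B* (-0.51), while *GNAS* was higher. *IGF1R*, the signalling receptor of IGF1 and IGF2, was lower (-2.58), and *IGF2BP3*, an RNA-binding protein of *IGF2* mRNA, was higher (1.13), of 9 tested. In mannose 6-phosphate sorting *CTSB*, a lysosomal protease (-1.63), and *GGA1*, a sorting adaptor (-0.82), were lower and *GNPTG*, a subunit of the tagging enzyme (0.66), higher, of 16 tested. Of 13 tested neighbours *MRPL23* (0.94), *UBE3A* (0.40) and *NAP1L4* (0.41) were higher, and of 21 other imprinted genes *NNAT* (0.94) was higher and *HM13* (-0.67) and *RB1* (-0.61) lower. Among 12 genes of imprint maintenance 3 were higher, with *ARID4B* (0.59) and *ARID4A* (0.57) first, and 1 lower, and of the 6 CDK inhibitors none was called, with none at an unadjusted p under 0.05. All of these share the 2 libraries and their markers.

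*PLAGL1* kept its order among the heifers from D55 to D105. Across the 23 heifers, Pearson's r between the log2 levels on D55 and D105 was 0.87 (permutation p = 1e-05, the smallest that 100000 permutations can give, 6e-05 after adjustment over the 6 genes), and Spearman's rho was 0.764 (permutation p = 4e-05, adjusted 0.00024). Heifers 519, 616 and 664 had the highest *PLAGL1* on both days, at 146, 121 and 126 CPM on D55 and 141, 124 and 119 CPM on D105. Heifers 546, 628 and 637 had the lowest on both, at 77.0, 79.0 and 71.5 CPM and then 72.5, 62.6 and 69.2 CPM. The value was 0.778 without the 2 heifers farthest from the median on D55, and 0.639, 0.896 and 0.917 within AI, IVP-Normal and IVP-LOS. Of 13569 genes with a median of at least 1 CPM, 97.6% had a lower r than *PLAGL1*, the median being 0.389 (quartiles 0.146 and 0.598).

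*CDKN1C* and *GNAS* also kept part of their order between the days. *CDKN1C* had an r of 0.564 (permutation p = 0.00513, adjusted 0.0103) and a rho of 0.49 (permutation p = 0.0189, adjusted 0.0378), with 0.703, 0.148 and 0.648 within AI, IVP-Normal and IVP-LOS. Without its 2 farthest heifers its r was 0.482 and no longer passed (adjusted permutation p = 0.054). *GNAS* had an r of 0.561 (permutation p = 0.0029, adjusted 0.0087) and a rho of 0.546 (permutation p = 0.00753, adjusted 0.0226). Its r was 0.493 without its 2 farthest heifers, and -0.065, 0.806 and 0.585 within AI, IVP-Normal and IVP-LOS, so the relation was not seen within AI. Of all genes, 70.9% had a lower r than *CDKN1C* and 70.4% a lower r than *GNAS*.

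*IGF2R* (0.0224), *SNRPN* (-0.0513) and *NAP1L5* (0.144) showed no such relation, with adjusted permutation p of 0.922, 0.922 and 0.773, and stood below the median of all genes. Their rho was 0.0573, -0.00494 and 0.084 (permutation p = 0.799, 0.983 and 0.704), and r without their 2 farthest heifers 0.193, 0.259 and 0.146. Within AI, IVP-Normal and IVP-LOS, r was 0.46, -0.281 and 0.0357 for *IGF2R*, 0.0812, -0.834 and 0.436 for *SNRPN* and -0.23, 0.829 and -0.103 for *NAP1L5*. The summed markers of single cell types had r of their own between the days, from 0.483 for neutrophils to 0.716 for B cells, 0.727 for platelets and 0.778 for erythroid cells. Their part in the 3 repeated levels was not tested.

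**Figure D4:**
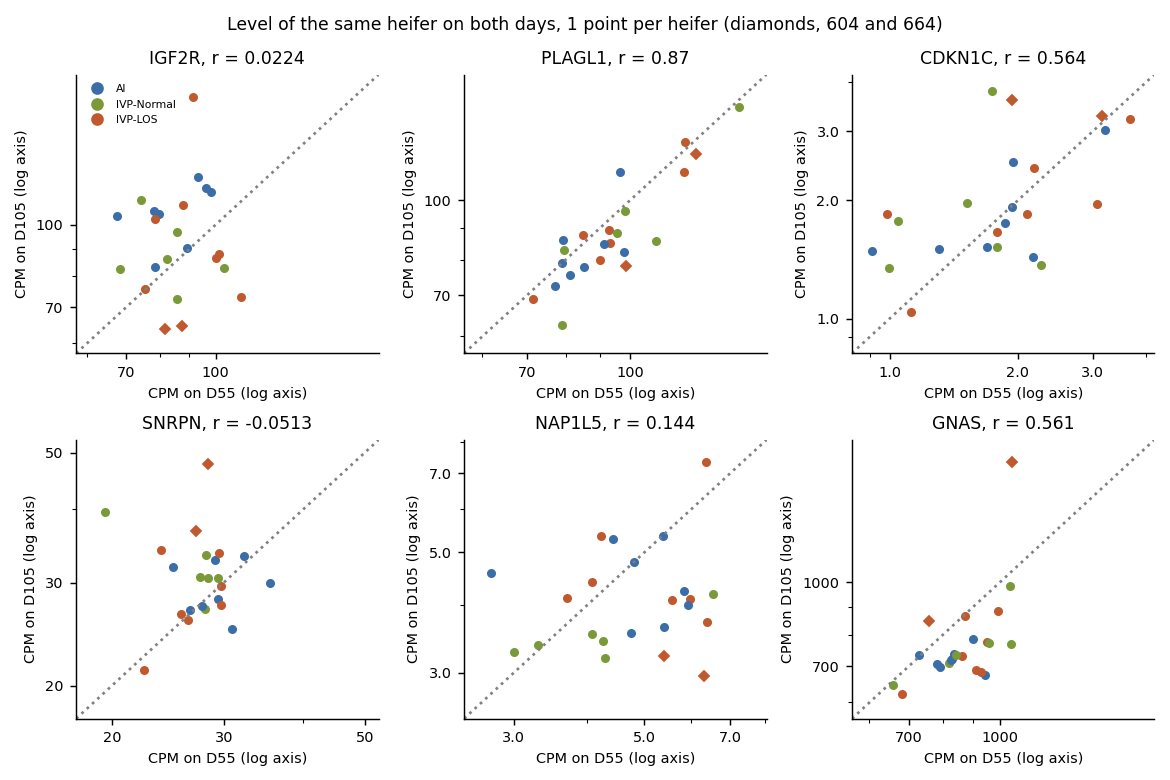
Level of each expressed gene on D55 (horizontal axis, CPM) against D105 (vertical axis, CPM) on log axes, 1 point per heifer coloured by treatment group, with Pearson's r of the log2 levels in each title and the line of equal levels dotted. *PLAGL1* lies along the line (r = 0.87) and *IGF2R* does not (r = 0.0224).

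The genes followed different marker sums across libraries, given here as descriptions because heifers, depth and cell mixture are shared between the points. *IGF2R* followed monocyte markers most closely (Spearman's rho 0.79 over 46 libraries, 0.577 on D55 and 0.888 on D105) and neutrophil markers on D105 (0.867, against 0.215 on D55), and ran against B cell markers (-0.626). *PLAGL1* showed the opposite order, with 0.618 for B cell, -0.589 for monocyte and -0.554 for neutrophil markers. *GNAS* followed platelet markers (0.705 over 46 libraries, 0.803 on D55 and 0.781 on D105) and the erythroid list (0.714), and was close to 0 with B cell markers (0.104). Without heifers 604 and 664 the *GNAS* and platelet value was 0.659. The other genes had other leading markers on each day. *CDKN1C* had 0.616 with T cell markers on D55 and 0.331 on D105, when its values with the erythroid list (0.541), neutrophil (-0.458) and platelet markers (0.441) were larger. *NAP1L5* had 0.591 with natural killer cell and 0.56 with T cell markers on D55, but 0.143 and 0.284 on D105, when its largest value was with B cell markers (-0.551). *SNRPN* had -0.461 with monocyte markers on D55 and -0.44 on D105, when the erythroid list (0.541) and platelet markers (0.52) gave larger values.

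**Figure D5:**
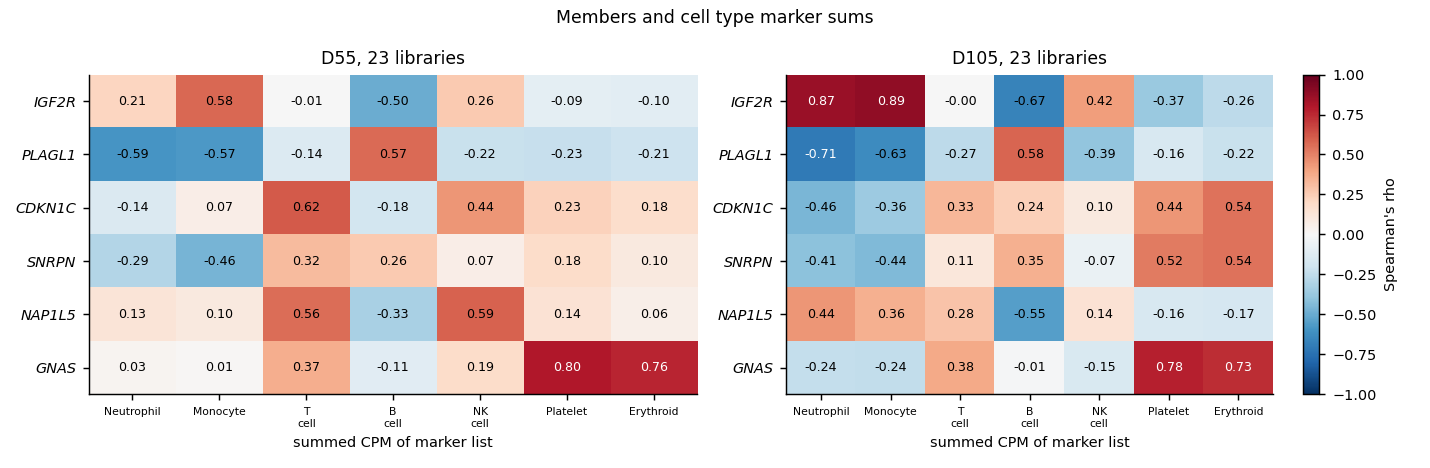
Spearman's rho between each expressed gene (rows) and the summed CPM of each marker list (columns) over the 23 libraries of D55 and of D105, in red above and blue below 0. *IGF2R* is dark red with monocyte (0.888) and neutrophil markers (0.867) on D105, and *GNAS* with platelet markers on both days (0.803 and 0.781).

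The genes most like each member over the 46 libraries were, for *IGF2R*, *JAK2* (rho 0.88), *MBP* (0.873) and *FAM49A* (0.865), and for *PLAGL1*, *NUP93* (0.869) and *UTP15* (0.862). For *GNAS* they were *TGM2* (0.826), *STMP1* (0.825) and *LGALSL* (0.822), and for *SNRPN*, *AKAP8L* (0.79), *TMEM11* (0.775) and *RPL31* (0.761). For *NAP1L5* they were *TRAF3IP3* (0.737), *PTGDR* (0.711) and *PELO* (0.704), and for *CDKN1C*, *TMEM204* (0.652), *CENPV* (0.636) and *ARHGDIB* (0.616). They are the highest of 13568 genes compared and carry no test. Among the members, *IGF2R* ran against *SNRPN* (-0.501; -0.669 on D55 and -0.606 on D105), and *CDKN1C* with *SNRPN* (0.486; 0.307 and 0.676).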

How the data were processed

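Leukocyte RNA of 23 heifers was sequenced on the DNBSEQ-G400 platform as paired-end reads. The authors trimmed the reads, aligned them to ARS-UCD1.2 with HISAT2 2.1.0 and counted them per RefSeq gene with HTSeq in union mode, and they deposited raw counts. Union mode sets aside reads over overlapping genes, and the strand setting is not given in the sources used here. A second deposited table of Ensembl gene counts was not used, since it counts the same reads. Rows of no gene were left out of library sizes and took 23.2 to 38.0% of reads.

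Counts were tested with edgeR 4.0.16 (quasi-likelihood, TMM, filterByExpr with min.count 10) in R 4.3.3 within the groups compared, adjusted by Benjamini-Hochberg over all genes tested and called at 0.05. DESeq2 1.42.0, the likelihood ratio test, other scalings and filters, a heifer block and left-out heifers were alternatives. Self-tests ran on simulated data. CPM levels were correlated as log2(CPM + 0.5) with 100000 two-sided permutations. The day groups share heifers: deviations of the same heifer correlated at 0.543 on average (23 of 23 over 0.1) by the heifer number in the labels, against -0.0239 between heifers.

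All 10 members are named, with at most 3 called genes of each list by adjusted p and the 3 most similar genes of each member, of which 1 for *PLAGL1* is not reported here. Members and lists were chosen with earlier results of these data known. Groups came from the labels, and heifers 604 and 664 were set apart as in the study. Listed genes not found by symbol, such as *KCNQ1OT1*, *CSF3R* and *GP1BB*, are not analysed here, nor are sequences and coordinates.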

Additional observations from a re-analysis of the deposited data

Results flagged for a closer look

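In 7 of 42 combinations of a gene and a group, 1 library lay far from the others of its group by Dixon's criterion, which chance alone meets in about 1 of 20 groups. In IVP-LOS on D105, *IGF2R* was 174 CPM in heifer 637 (the nearest other heifer at 109), and *GNAS* was 1660 CPM in heifer 604 (nearest 886). In AI on D105, *PLAGL1* was 111 CPM in heifer 533 (nearest 86.1). In IVP-Normal, heifer 633 had the highest *CDKN1C* on D105 (3.81 CPM, nearest 1.97) and the lowest *SNRPN* on D55 (19.5 CPM, nearest 27.5). Heifer 560 had the highest *NAP1L5* of IVP-Normal on both days, at 6.54 CPM on D55 (nearest 4.28) and 4.2 CPM on D105 (nearest 3.54). Heifers 560 and 633 were thus the 2 that stood apart more than once.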

How the results depend on the processing

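The number of members called was 0 under every alternative run in 11 of the 13 comparisons. In AI over time it was 2, and 1 with the likelihood ratio test (*GNAS* adjusted p = 0.0545), 0 with all 46 libraries in the fit, and 0 to 2 when each AI heifer was left out, an alternative chosen after seeing the data. For heifers 604 and 664 on D105 it was 3, 0 to 1 with either left out, where 1 library stands against 21 (*IGF2R* kept a fold change of -0.665 to -0.655), and 0 against the other 7 IVP-LOS heifers. With heifer as a replicate block, AI still gave 2 (*IGF2R* 0.32, adjusted p = 0.00848; *GNAS* -0.19, 0.0440), and the block changed no other call, while over all genes it gave 2603 calls in place of 1517 in AI, 838 in place of 374 in IVP-Normal and 162 in place of 38 in IVP-LOS. The block called no member in either interaction of day with treatment. Treatment groups within a day are of different heifers and have no pairs. Over all genes, IVP-Normal gave 613 to 756 and IVP-LOS 227 to 558 calls with the likelihood ratio test, DESeq2 or all libraries, IVP-LOS 12 without heifers 604 and 664 and 24 without 637, the treatment comparisons at most 48 (DESeq2, AI with IVP-LOS on D105) in place of 0, and the pair on D105 567 without 604, 725 without 664 and 1466 against IVP-LOS in place of 3550. *CDKN1C* lost its repeated level without its 2 farthest heifers.

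Values that changed sign were all of genes without a call. In AI over time these were *CDKN1C* (-0.0172) and *SNRPN* (-0.0374) with upper-quartile scaling, *SNRPN* with no filter (-0.0078) and with all libraries (-0.0024), and, over the left-out heifers, *PLAGL1* (-0.0682 to 0.0017), *CDKN1C* (-0.0381 to 0.114) and *SNRPN* (-0.0371 to 0.0452). In IVP-LOS over time they were *IGF2R* with the block (-0.0182) and without heifer 637 (-0.11), *GNAS* without 637 (0.0048) and *CDKN1C* without 604 and 664 (-0.0898). Between IVP-Normal and IVP-LOS they were *GNAS* on D55 with all libraries (-0.0055) and without 604 and 664 (-0.0010), *GNAS* on D105 without them (-0.0269), and without 637 *PLAGL1* on D55 (0.0415), *IGF2R* (-0.10) and *SNRPN* (0.0242) on D105. Between AI and IVP-LOS on D105, without 604 and 664, they were *SNRPN* (-0.0459) and *NAP1L5* (0.0966). For the pair on D55 they were *SNRPN* with upper-quartile scaling (0.0013) and against IVP-LOS (0.0439), and with either left out *GNAS* (-0.208 to 0.291), *IGF2R* (-0.103 to 0.0227), *IGF2* (-1.84 to 0.0797) and *SNRPN* (-0.0511 to 0.0416), and on D105 *PLAGL1* (-0.232 to 0.385). In the interaction of IVP-LOS with AI, without 604 and 664, they were *CDKN1C* (-0.11), *NAP1L5* (0.0041) and *GNAS* (-0.0451). Among the r of D55 with D105 they were *IGF2R* (-0.0112) and *SNRPN* (0.0106) with upper-quartile scaling, *SNRPN* (0.0188) and *NAP1L5* (-0.0030) centred on groups, and *SNRPN* without its 2 farthest heifers (0.259). The cause of these changes was not tested. *CDKN1C* and *NAP1L5* had the fewest reads of the expressed genes, and the part of depth in their spread was not tested. *IGF2*, *PHLDA2*, *PEG3* and *KCNQ1* had too few reads for a usable level.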
